A study of Homo sapiens with 6 samples.

Results

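The genes on human chromosome 19 whose symbols start with ZNF and a number make up a large grouping of zinc finger genes. The accessibility of their promoters was examined in EndoC-βH3 cells. The members were the 249 protein-coding genes of GENCODE release 44 with such a symbol on chromosome 19, out of 20033 protein-coding genes on the main chromosomes. An accessible region was assigned to a gene when it came within 2 kb of where a protein-coding transcript starts. This gave 239 regions at the members, out of 20094 promoter regions and 108542 accessible regions in all. The choice rested on symbols and position alone, and the encoded proteins were not examined. Of the members, 3 were readthrough genes, which join the exons of neighbouring genes.

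EndoC-βH3 is a single line of human beta cells, immortalised with transgenes that a tamoxifen-dependent Cre recombinase can cut out, and the genotype of every library is labelled WT. The non-senescent group was an untreated control, and the senescent group had received 4-hydroxytamoxifen for 3 weeks. Each group had 3 libraries, each from 100000 cells, and nothing in the labels says whether these came from separate cultures. Accessibility was measured by ATAC-seq, in which a transposase inserts adapters where DNA is open. The level of a region is given here as its mean signal, the authors' mean of size-factor normalised read counts over all 6 libraries of both groups. It has no value per library, so it carries no SD, the depth of a library cannot be read from it, and no test between groups was made. All values below are therefore descriptions of the pooled cells and say nothing of a change with senescence.

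Most ZNF genes of chromosome 19 encode proteins with a KRAB domain and an array of zinc fingers. The fingers read a DNA sequence, often in a transposable element, and the KRAB domain recruits a corepressor that lays down repressive histone marks. The genes arose by repeated duplication and lie in clusters, and parts of many clusters are covered by heterochromatin. The finger array is usually encoded by a long last exon.

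The promoters of a few members are printed first, because they show the sequence features to which the later counts refer. They were picked after the values had been seen. ZNF564 had the highest mean signal of all members and ZNF85 the lowest, ZNF208 had no accessible region, ZNF91 is a relative of ZNF85 and ZNF208 with a moderate mean signal, and ZNF808 is a repressor of transposable elements whose loss disturbs pancreas development. Each stretch is the 250 bases before the RefSeq start of the gene in GRCh38.p14, written 5′ to 3′ on the strand of the gene. Capitals mark a CCAAT box or its reverse complement and the ETS motif CCGGAAG or its reverse complement. The stretches lie at chr19:12551483-12551732 (minus strand) for ZNF564, chr19:23395472-23395721 (minus strand) for ZNF91, chr19:20923001-20923250 (plus strand) for ZNF85, chr19:22010944-22011193 (minus strand) for ZNF208 and chr19:52527418-52527667 (plus strand) for ZNF808.
ZNF564: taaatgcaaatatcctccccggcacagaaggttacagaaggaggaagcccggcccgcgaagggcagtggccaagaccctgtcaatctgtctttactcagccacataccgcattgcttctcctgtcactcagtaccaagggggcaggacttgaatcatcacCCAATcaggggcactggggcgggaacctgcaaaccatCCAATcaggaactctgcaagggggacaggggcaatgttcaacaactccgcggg
ZNF91: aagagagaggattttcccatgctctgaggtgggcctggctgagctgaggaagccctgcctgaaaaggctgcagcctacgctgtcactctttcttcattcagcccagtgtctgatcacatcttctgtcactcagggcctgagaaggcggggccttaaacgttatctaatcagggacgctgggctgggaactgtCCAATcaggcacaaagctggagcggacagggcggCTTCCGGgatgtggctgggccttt
ZNF85: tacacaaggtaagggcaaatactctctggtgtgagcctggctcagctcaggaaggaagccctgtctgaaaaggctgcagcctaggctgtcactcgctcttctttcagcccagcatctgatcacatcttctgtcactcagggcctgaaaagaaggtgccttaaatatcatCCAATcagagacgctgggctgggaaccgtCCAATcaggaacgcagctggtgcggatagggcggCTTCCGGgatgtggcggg
ZNF208: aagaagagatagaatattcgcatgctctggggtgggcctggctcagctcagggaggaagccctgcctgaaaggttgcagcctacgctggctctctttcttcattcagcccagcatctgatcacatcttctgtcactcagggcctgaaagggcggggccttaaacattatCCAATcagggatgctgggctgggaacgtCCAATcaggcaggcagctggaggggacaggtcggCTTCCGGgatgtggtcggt
ZNF808: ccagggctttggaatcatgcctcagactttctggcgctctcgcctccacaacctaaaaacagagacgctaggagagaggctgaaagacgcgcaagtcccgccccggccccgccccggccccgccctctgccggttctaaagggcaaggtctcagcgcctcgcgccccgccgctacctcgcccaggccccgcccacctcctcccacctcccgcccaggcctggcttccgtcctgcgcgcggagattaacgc

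The promoters of ZNF91, ZNF85 and ZNF208 are close relatives, although ZNF91 had a moderate mean signal, ZNF85 a weak one and ZNF208 no listed region. Identity over the 250 bases was 86.0% between ZNF91 and ZNF208, 80.4% between ZNF91 and ZNF85, and 82.4% between ZNF85 and ZNF208. All 3 carry CCAAT boxes upstream of an ETS motif close to the start. ZNF564 shares the CCAAT boxes without the ETS motif, and its identity to ZNF91 was 58.0%. ZNF808 has neither in this stretch, although an ETS match reaches into the 50 bases after its start, and holds 24 CpG dinucleotides, against 7 or 8 in the others.

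An accessible promoter was found at nearly 9 in 10 members. A region was present at 223 of 249 genes (89.6%), and a promoter with no listed region is termed closed below, although a region under the limit of the peak caller would not have been listed. The share was 67.4% (827 of 1227) among the other protein-coding genes of chromosome 19 and 77.9% (14459 of 18557) among genes of other chromosomes. With start sites of all transcripts of these genes, an alternative added after the values had been seen, the shares were 90.8% (226 genes), 72.5% and 80.5%. The members gained were ZNF625-ZNF20, which has no transcript annotated as protein-coding and starts inside the region of ZNF625, and ZNF404 and ZNF541. By start sites of protein-coding transcripts, the share among the other genes inside the 9 large ZNF clusters was lower still, at 48.3% (86 of 178). Of these 178 genes, 15 have no protein-coding transcript and so could not be given a region, against 1 of the 249 members. ZNF genes of other chromosomes resembled the members, with 91.0% (242 of 266). Genes are not replicates and share sequence by descent, so these shares were set side by side without a test.

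The members were more often accessible, but at a moderate level. The mean signal of the strongest promoter region of each gene had a median of 715 in the 223 members, with an interquartile range from 456 to 1119. The median was 801 in other chromosome 19 genes (interquartile range 341 to 1499) and 845 on other chromosomes. It was 916 in the ZNF genes of other chromosomes (interquartile range 579 to 1385). The members were thus gathered in the middle of the range, with few weak and few very strong promoters. A mean signal under 100 was found at 6 members (2.69%), against 10.9% of other chromosome 19 genes and 8.24% of genes elsewhere, and the share in ZNF genes of other chromosomes was 2.89%. The highest member reached 2972, against 7021 and 9543 in other chromosome 19 genes and genes elsewhere, which are larger groups. In ZNF genes of other chromosomes, a group of like size, the highest was 7763.5. When genes with no region were counted as 0, the order changed, and the median was 647 in the members, 363 in other chromosome 19 genes and 590.4 on other chromosomes.

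**Figure D1:**
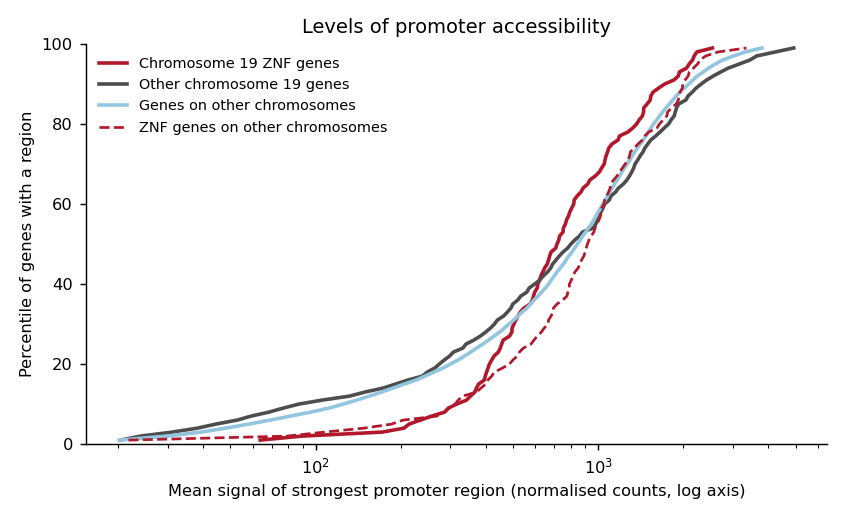
Percentile of genes (vertical axis) against the mean signal of the strongest promoter region in normalised counts (horizontal, log axis), for genes with a region; the lines are the 223 chromosome 19 ZNF genes, 827 other chromosome 19 genes, 14459 genes of other chromosomes and, among these, 242 ZNF genes. The lines of the chromosome 19 ZNF genes and of the ZNF genes elsewhere are steeper over their middle than the others. The middle of the chromosome 19 ZNF genes lies between 456 and 1119.

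The promoters of the members were also simpler in layout. A single accessible region was present at 200 of the 223 members (89.7%), against 64.8% of other chromosome 19 genes and 69.6% of genes elsewhere. A start site lay inside the strongest region at 221 members (99.1%), against 78.2% and 86.3%. The middle of the region lay a median of 80 bp downstream of a start site inside it, or else of the one nearest its edge. Where several start sites lay inside, the one taken was not always the nearest to the middle. The interquartile range was from -46 to 179 bp, and it was wider in other chromosome 19 genes, from -276 to 194 bp. ZNF genes of other chromosomes were nearer to the members, with a single region at 76.9%, a start site inside at 94.2% and a median distance of 72 bp, from -81 to 215 bp. When genes were weighted to the spread of mean signal in the members, a single region was present at 62.1% of other chromosome 19 genes and 68.4% of genes elsewhere, and the start site lay inside the region at 82.4% and 89.3%.

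**Figure D2:**
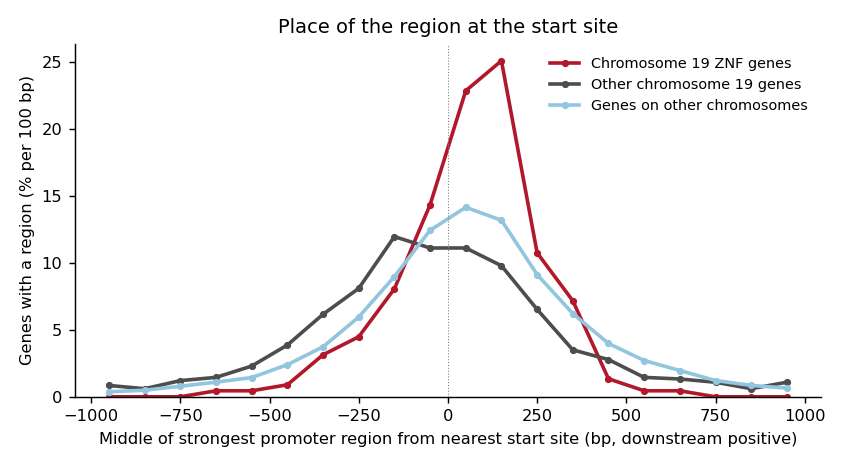
Share of genes with a region (%, vertical axis, per 100 bp) by the distance of the middle of the strongest promoter region from a start site (bp, horizontal axis, downstream positive), for the chromosome 19 ZNF genes, other chromosome 19 genes and genes of other chromosomes. The start site is one inside the region, not always the nearest to its middle, or else the one nearest its edge. The distances of the ZNF genes gather just downstream of the start site, around the median of 80 bp, and have short tails.

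Member regions were narrower and poorer in GC than promoter regions of other chromosomes of the same strength. The 239 regions had a median mean signal of 677, a width of 973 bp and a GC content of 59.9%. Promoter regions of other chromosomes, weighted to the same spread of mean signal, had a median width of 1113 bp and a GC content of 62.4%. The ratio of observed to expected CpG was 0.697 in the members and 0.737 in those regions. Other promoter regions of chromosome 19 were narrower than those of the members, at 817 bp without weighting, and by the strongest region per gene with weighting the medians were 985 bp in other chromosome 19 genes and 996 bp in the members. Per kb of region, the median mean signal was 695 in the members and 626 in the weighted regions.

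The members of highest mean signal came mostly from one cluster, in 11.48 to 12.64 Mb. ZNF564 had a mean signal of 2972 and ZNF44 of 2551. ZNF799 followed with 2499.7, ZNF700 with 2194, ZNF823 with 2169 and ZNF441 with 2158. All of these lie in that cluster, and they make up 6 of the 10 highest members by mean signal. Mean signal is not divided by region length, and most of these regions are wide. Those of ZNF44 and ZNF700 span 1506 and 2380 bp, against a median of 996 bp in the members. Per kb of region, ZNF564 was still the highest, with 2639. Next came ZNF574 with 2404, ZNF331 with 2322 and ZNF444 with 2190, all outside that cluster, while ZNF700 had 922. The region of ZNF564 at chr19:12550996-12552121 also lies in the promoter of a further gene model without a symbol, as does that of ZNF700.

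The other high members were scattered. ZNF574 had a mean signal of 2870.3 and the neighbours ZNF837 and ZNF497, near the end of the long arm, had 2203 and 2184. ZNF473, a component of the machinery that processes histone messenger RNA, had 2260.0, in a region of 1309 bp at chr19:50024940-50026248 that also lies in the promoter of VRK3. For a promoter shared with a neighbour in this way the signal cannot be divided between the genes.

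The least accessible members that still had a region were at a small fraction of these levels. ZNF85 had a mean signal of 42.2 in a region of 474 bp at chr19:20923149-20923622. Its cluster neighbours ZNF66 and ZNF682 had 62.2 and 69.1. In the cluster of 51.57 to 53.58 Mb, ZNF665 had 83.5, ZNF677 had 97.2, ZNF888 had 167 and ZNF350, a partner of BRCA1 in repression, had 199. ZNF177 and ZNF426, in the cluster of 7.07 to 9.79 Mb, had 62.0 and 175. ZNF671 had 207. ZNF671 and ZNF677 are known for promoter methylation in cancers, and methylation was not measured here.

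The members with well-described functions spanned the whole range. Among repressors of transposable elements, ZNF93, which silences LINE-1 elements, had a mean signal of 1219 and ZNF91, which silences SVA and LINE-1 elements, had 1091. ZNF808 had 487. These place ZNF93 at rank 51, ZNF91 at rank 59 and ZNF808 at rank 163 of the 223 members. ZNF43, a further member of the ZNF91 group, had 664. ZNF274, which brings a histone methyltransferase to the 3′ ends of other ZNF genes, had 992.

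Other named members lay on both sides of the median of 715. ZNF224 had 608, ZNF304 had 591, ZNF582 had 527 and ZNF175 had 373. ZNF331, an imprinted gene, had 3 promoter regions, the strongest at 1530.1. ZNF146, whose protein consists of zinc fingers with no KRAB domain, had 2101 in a region shared with ZNF565. ZNF568 had 728 in a region shared with ZNF829, and ZNF382 had 820.3 in a region shared with ZNF529. No region was present at ZNF154, ZNF208, ZNF257 or ZNF536. In all, 14 member regions lay in the promoters of several members and 26 in that of a gene outside the group.

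The members fell into 16 clusters when neighbours up to 1 Mb apart were joined, and 9 of these, here lettered A to I in order along the chromosome, had at least 5 members and held 238 of the 249 genes. Cluster C, at 11.48 to 12.64 Mb, had the highest median mean signal of the 9, at 1322, with a region at 25 of 26 genes. Its interquartile range was 860.3 to 2012, and its levels ran from 389 at ZNF69 to 2972 at ZNF564. The other genes inside the span of cluster C had a region at 7 of 13 and a like median, 1324, with regions shared with members included. Cluster H, at 51.57 to 53.58 Mb, had the lowest median, 458, with an interquartile range of 366 to 677 that did not reach that of cluster C. Its levels ran from 83.5 at ZNF665 to 1530.1 at ZNF331, and ZNF534, ZNF578 and ZNF415 had no region among its 40 genes.

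Cluster F, at 36.18 to 37.82 Mb, had a region at all of its 26 genes and a median of 1017, from 451 at ZNF573 to 2101 at ZNF146. The largest, cluster I at 55.48 to 58.48 Mb, had a region at 56 of 59 genes and a median of 658. Its levels ran from 207 at ZNF671 to 2203 at ZNF837, and ZNF835, ZNF154 and ZNF814 had none. Cluster G, at 43.53 to 45.08 Mb, had a region at 23 of 24 genes, all but ZNF404 (which had one at 414 by start sites of all transcripts), with a median of 522 and levels from 209 at ZNF296 to 1683 at ZNF223.

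Of the smaller clusters, cluster B at 7.07 to 9.79 Mb had a region at 15 of 16 genes, all but ZNF560, with a median of 496 and levels from 62.0 at ZNF177 to 1637 at ZNF414. Cluster A at 2.82 to 2.94 Mb had a region at 4 of 5 genes, all but ZNF556, with levels from 403 at ZNF57 to 1928 at ZNF77. Cluster E at 34.68 to 34.96 Mb had a region at all 5, from 310.2 at ZNF792 to 1466 at ZNF302. The gene of cluster C without a region was the readthrough gene ZNF625-ZNF20, which has no protein-coding transcript, so that by start sites of all transcripts every gene of the cluster had one.

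**Figure D3:**
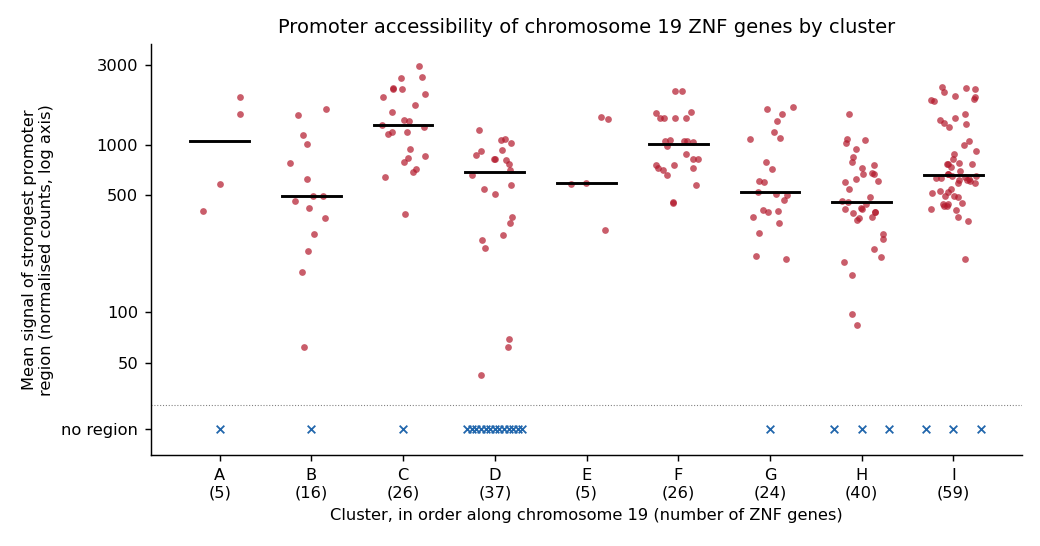
Mean signal of the strongest promoter region (normalised counts, log axis) of each ZNF gene in the 9 clusters of at least 5 genes, in order along chromosome 19; points are genes, bars are medians over genes with a region, and crosses are genes with no region. Cluster C has the highest median (1322) and cluster D holds 13 of the crosses.

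Cluster D, at 19.67 to 24.13 Mb next to the centromere, stood apart in having closed promoters. A region was present at 24 of its 37 genes (64.9%), and 13 of the 26 members without a region lay there. Where a region was present the median was 687, close to that of all members, and the levels ran from 42.2 at ZNF85 to 1219 at ZNF93. The closed genes were not spread evenly. From ZNF208 to ZNF730, a run of 10 consecutive members over 1.21 Mb had no promoter region (ZNF208, ZNF257, ZNF676, ZNF729, ZNF98, ZNF492, ZNF99, ZNF723, ZNF728 and ZNF730). The whole stretch, chr19:21932958-23147221, held 1 accessible region of any kind, with a mean signal of 16.8. On its sides lay ZNF43 with 664 and ZNF724 with 927. The other closed genes of the cluster were ZNF90 and its neighbour ZNF486, and ZNF626.

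Of the other 13 members without a region, 10 were named above with their clusters and 3 lay outside the large clusters. ZNF536, a gene of the nervous system, stood alone at 30.22 to 30.71 Mb. ZNF541, a gene of male germ cells, and ZNF114 were consecutive members at 47.52 to 48.29 Mb, with 15 other protein-coding genes in that span. ZNF541 had a region of 27.8 by start sites of all transcripts.

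Near-identical copies were counted at the start sites, since short reads from such copies can be hard to tell apart. A copy of at least 95% identity over at least 200 bases elsewhere on the main chromosomes was found for the 300 bases at the start of 4 members. Of these, 3 had a region (ZNF112, ZNF28 and ZNF468, the last 2 with a region in common), and ZNF208 had none. The other 25 members without a region had no such copy. How reads with several matching places were treated in the alignment is not given in the sources used here.

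CpG content went with the presence of a region over all members but not within cluster D. In the 300 bases from 250 before to 50 after the start, the median number of CpG dinucleotides was 21 in members with a region and 14.5 in those without. A region was present at 10 of 17 members with under 10 CpG (58.8%), 87 of 101 with 10 to 19 (86.1%), 94 of 98 with 20 to 29 (95.9%) and 32 of 33 with 30 or more (97.0%). In every class the share was above that of other chromosome 19 genes, which had 28.6%, 60.7%, 86.5% and 90.5%. It was also above that of other chromosomes, which had 36.1%, 80.0%, 94.6% and 96.5%, though in the upper classes by little. Within cluster D the order was turned round, with a median of 10 CpG at the 24 genes with a region and 13 at the 13 without.

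**Figure D4:**
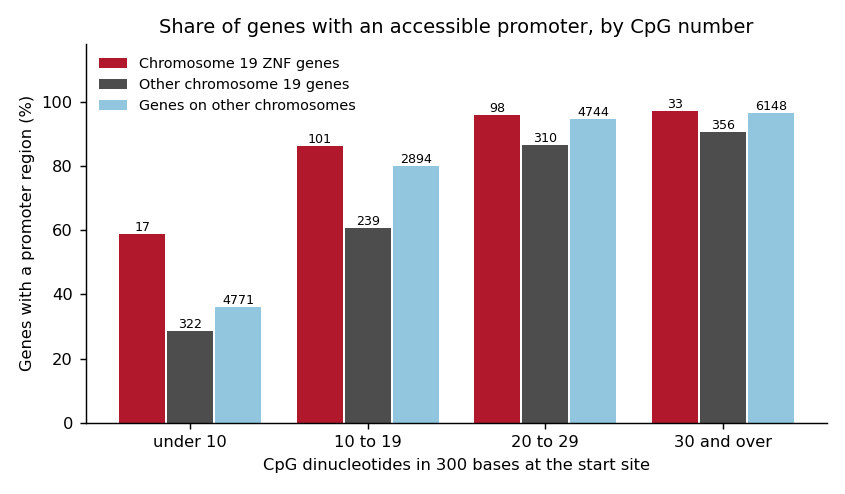
Genes with a promoter region (%, vertical axis) by the number of CpG dinucleotides in the 300 bases at the start site (horizontal axis); bars are the chromosome 19 ZNF genes, other chromosome 19 genes and genes of other chromosomes, with the number of genes above each bar. The ZNF genes are highest in every class, and the gap is widest under 10 CpG, where they have 58.8%.

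The level of an accessible promoter went only weakly with its CpG number. Across the 223 members with a region, Pearson's r between the number of CpG and the log2 mean signal was 0.166 and Spearman's rho was 0.117. Wider regions had more signal, with r = 0.509 and rho = 0.458, where both are drawn from the same reads. These correlations are across genes, which share libraries and ancestry, and are given without a p-value.

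Some motifs were more common at the start sites of the members than at those of other genes. ETS motifs, bound by a large family of activators, were sought as CCGGAAG, the CCAAT box of NF-Y as CCAAT, the GC box of SP and KLF factors as GGGCGG, the TATA box as TATAAA, and the E-box as CACGTG. Each was sought on both strands in the 300 bases at the start, and the letters of these motifs do not contain one another. The ETS motif was present at 111 of 249 members (44.6%), against 15.1% of other chromosome 19 genes and 13.6% of genes elsewhere. ZNF genes of other chromosomes held it at 31.6%. The CCAAT box was present at 132 members (53.0%), against 37.1% and 35.8%. It was at 41.7% of ZNF genes of other chromosomes and 41.6% of the other genes inside the large clusters. The members with it were unevenly spread, with 24 of 26 in cluster C and 36 of 37 in cluster D. The GC box was at 67.9%, 66.3% and 60.9%.

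The TATA box and the E-box were rarer in the members than in other chromosome 19 genes and genes elsewhere, and ZNF genes of other chromosomes held them at 3.01% and 5.64%. The TATA box was present at 7 members (2.81%), against 7.74% of other chromosome 19 genes and 9.94% of genes elsewhere. The E-box was present at 9 members (3.61%), against 9.37% and 8.79%. The longer NRF1 motif was at 9.24% of members, 7.42% of other chromosome 19 genes and 4.55% of genes elsewhere. The palindromic GCGC motif, which can overlap that of NRF1, was at 12.9%, 13.5% and 12.1%, and the ZNF143 motif at 1.20%, 0.571% and 0.345%. The YY1 motif AAGATGGC was at 6.83%, 6.03% and 3.87%, the E2F motif TTTCCCGC at 2.01%, 3.26% and 2.17%, and the cyclic AMP response element TGACGTCA at 3.61%, 3.67% and 2.61%. Among genes with a region, weighted to the signal of the members, the ETS motif was at 44.8% of members, 22.5% of other chromosome 19 genes and 17.7% of genes elsewhere, and the CCAAT box was at 51.6%, 38.0% and 32.7%.

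**Figure D5:**
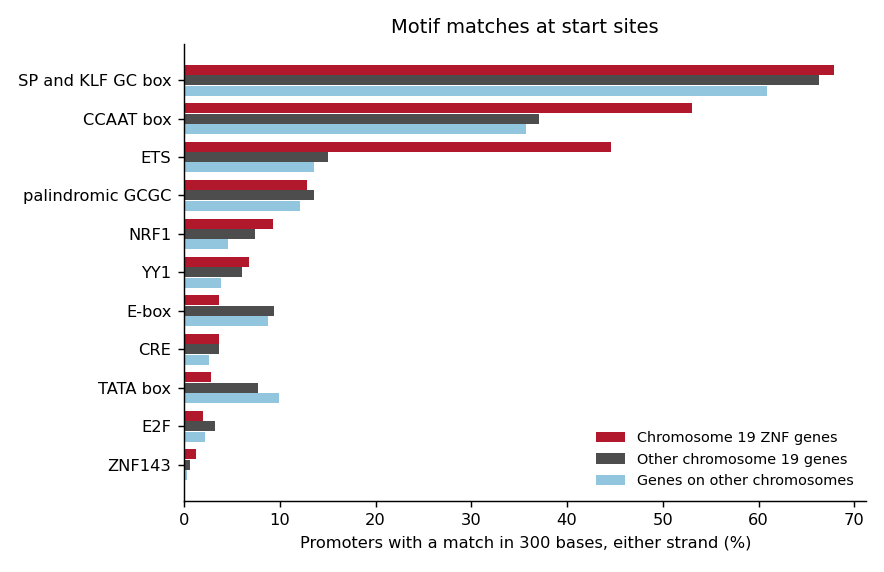
Share of promoters with a match to each motif in 300 bases at the start site, on either strand (%, horizontal axis), for the 249 chromosome 19 ZNF genes, 1227 other chromosome 19 genes and 18557 genes of other chromosomes. The ETS bar of the ZNF genes (44.6%) and their CCAAT bar (53.0%) stand above those of the other groups, and their TATA and E-box bars below.

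The ETS and CCAAT motifs divided the clusters. In cluster C, with the highest median mean signal of the large clusters, 24 of 26 promoters held a CCAAT box (92.3%) and 2 an ETS motif (7.69%). In cluster D, 36 of 37 held a CCAAT box (97.3%) and 25 an ETS motif (67.6%), as in the promoters of ZNF91, ZNF85 and ZNF208 printed above. In cluster H it was 12 and 25 of 40 promoters, and in cluster I 35 and 34 of 59. Cluster F had 23.1% CCAAT, 26.9% ETS and 26.9% GC box, each under the share in all members, though all of its promoters were accessible. Clusters A, B, E and G held the ETS motif in 0 of 5, 4 of 16, 3 of 5 and 9 of 24 promoters, and the CCAAT box in 5, 4, 2 and 4. Promoters of a cluster descend from each other, so the number of independent cases is smaller than these counts.

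The ETS matches of the members gathered near the start, and their CCAAT matches lay mostly on one strand. The 123 ETS matches of the members had a median position of -15 relative to the start, and 81.3% lay within 50 bases of it, against 55.0% on other chromosomes. The CCAAT matches had a median position of -71.5, against -95 on other chromosomes, and 23.8% lay within 50 bases of the start, against 19.9%. Of the 206, 78.6% had the letters CCAAT on the strand of the gene, against 49.4% of the matches on other chromosomes.

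Neither motif separated open from closed members. The ETS motif was present at 44.8% of the members with a region and 42.3% of those without, and the CCAAT box at 51.6% and 65.4%. Within cluster D, the ETS motif was at 17 of 24 open and 8 of 13 closed promoters, and the CCAAT box at 24 and 12. Among the open members, the median mean signal was 631 with an ETS motif and 794 without, and 715 with and 714 without a CCAAT box. A match is a description of the letters, and no binding was measured here.

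Outside the promoters, the bodies of the members held few accessible regions. In 6703 kb of gene body more than 2 kb from the start of any protein-coding transcript, 25 regions were found, 0.373 per 100 kb, in 17 of the 249 genes. The other genes of chromosome 19 had 4.07 per 100 kb, and those of them inside the large clusters 1.77. By start sites of all transcripts the members had 19 (0.304 per 100 kb), other chromosome 19 genes 3.71 and those inside the large clusters 1.58 per 100 kb. ZNF536 had 4 such regions, the most of any member, although its promoters were closed. They lay in a long body, with 479020 bp outside promoters, whereas ZNF653 had 2 in 15945 bp. The region of ZNF584, with a mean signal of 2099, lay at the start of its transcripts without a defined coding sequence. The strongest away from every start site of these genes were at ZNF709 with 1274, ZNF653 with 1122 and ZNF473 with 1098. These genes were named after the values had been seen. A region in the last exon was found at 1 member, ZNF497, with a mean signal of 24.8, against 87 of the other chromosome 19 genes (7.09%), although the median last exon was longer in the members, at 3355 bases against 751.

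The same held for the clusters as a whole. Accessible regions away from promoters numbered 140 in the 16.9 Mb of the large clusters, 8.26 per Mb, against 46.3 per Mb in the rest of chromosome 19. Cluster D was the emptiest of the clusters with more than 5 genes, with 7 such regions, 1.57 per Mb. Cluster F had 4.28 per Mb and cluster G 24.5 per Mb.

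Facts of the libraries bear on how these levels may be read. Promoter regions were present at 12 of 12 beta cell markers, with a median mean signal of 1041 and INS at 7894, and at 9 of 10 markers of other cells, with a median of 142 and a range from 53.4 to 2101. PTPRC, a leukocyte marker, had none. Most of these markers of other cells thus had a promoter region too. A region at a ZNF promoter is given here as accessibility and not as expression, which the study profiled separately and which was not examined here.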

How the data were processed

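The data were ATAC-seq libraries of EndoC-βH3 cells, 3 non-senescent and 3 senescent, grouped by their labels. Per the study's methods and the submitters' processing notes, reads were trimmed with Trim Galore and aligned to hg38 with Bowtie2. They were then cleared of duplicates with Picard and shifted for the transposase offset. Peaks were found with MACS2, and reads were counted over the union of the peaks. The mean signal deposited by the authors is the mean over all 6 libraries of counts divided by DESeq2 size factors. Their table also holds the fold change between groups, its standard error, test statistic, p-value and adjusted p-value. These are the authors' own comparison and were not used. With no values per library, the depth behind a value cannot be read from the table, no test was made and replicates could not be compared. A mean signal is not divided by region length, so wide regions collect more reads.

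Region starts were raised by 1, since peak files usually count from 0, which the table does not state. The build matched the reference, with 0 regions past a chromosome end. Genes and start sites came from GENCODE 44, and start sites were those of protein-coding transcripts. Levels were compared by medians, and groups of like mean signal by weighting genes or regions over 20 bins of equal number. RefSeq promoters matched 218 of 249 members by symbol. Copies of start sites on chromosome 19 were sought with blastn 2.17.0. Motif windows were 250 bases before to 50 after the start in hg38. The overlap search was tested on simulated data. Python 3.11.15 and pandas 2.3.3 were used.

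The members, lists and motifs were chosen with earlier results of these data known. Named genes were the 10 highest and 10 lowest members, the highest, lowest and closed genes of each cluster of at least 5, and a fixed list of members with described functions. Alternatives were the promoter window, the start sites, readthrough genes, a least signal, shared regions, bins, cluster gaps and the value taken for a gene.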

Additional observations from a re-analysis of the deposited data

How the results depend on the processing

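Of 31 alternatives, of which 4 (start sites of all transcripts) were added after the values had been seen, 29 left their result within its range, that is within 1.5 times a count or within the 95% binomial interval of a median. The number of members with a region was 203 without regions shared with other genes and between 221 and 226 under the others. The median of the strongest region per gene ran from 677 to 749. The GC content of member regions less that of promoter regions of like signal moved from -2.49 to -3.67 percentage points when 300 bases around the middle were read. The regions in member gene bodies fell from 25 to 15 with a mean signal of at least 50, by construction, and to 19 by start sites of all transcripts. Clusters of at least 5 members numbered 9, and 10 or 6 with a gap of 0.5 or 2 Mb. No paired analysis was possible because only means over both groups were read, and for the same reason no library could be left out. A peak list names only what passed the peak caller, so a promoter without a region is one not listed, not one shown to be closed.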

Other observations

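Zinc finger genes of chromosome 19 with other symbols were looked at after the values had been seen. A promoter region was present at 13 of 19 genes with symbols starting ZFP, ZSCAN, ZBTB, ZIM, ZIK or PEG3, with a median mean signal of 859.6 and a range from 142 to 1724. ZFP30 was the highest and ZSCAN1 the lowest. No region was present at ZSCAN5B, ZSCAN5C, ZSCAN4, ZIM3, ZIM2 or PEG3. ZIM2 and PEG3 are imprinted genes, and ZSCAN4 is known from the early embryo.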
